A study of Mus musculus with 41 samples.

Results

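The transcripts described here are mouse gene models with provisional names in the count table: Gm and a number, or a symbol ending in Rik. Some have since been given another symbol. All reached a mean of at least 20 CPM (the counts of a gene per 1000000 counts of its library) in 1 or more of 5 groups of microglial RNA libraries. The count table has 24537 symbols. Of these, 3063 had such a name, and 176 of these passed the level, 39 with Gm symbols and 137 with Rik symbols. Because these group means chose the transcripts, their levels are given as a description. A transcript that passed through 1 group alone had a higher mean there than in the other groups by choice. Counts of changed transcripts are therefore set beside the share over all genes and support nothing by themselves. For a comparison of 2 groups an adjusted p is printed only where the transcript reached 20 CPM in both, or where it missed the threshold.

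The samples came from C57Bl6 mice. Live CD11b+ CD45Low cells, the gate used for microglia, were sorted from brain after a Percoll gradient, and their RNA was taken at once (ex vivo, 5 libraries) or after culture in DMEM/F12 with 5% FBS and daily IL-34 for 6 h (2 libraries), 24 h (3 libraries, of which replicate 2 is labelled 22 h) or 7 d (5 libraries). A further 2 libraries came from cells kept 7 d with IL-34 and TGFB, and 4 from unsorted brain lysate. ATAC-seq and H3K27ac ChIP-seq peaks were given for ex vivo and 7 d microglia, and H3K4me2 and PU.1 peaks for ex vivo microglia. The age and sex of the mice are not in the labels used here, and the title of the series speaks of human microglia while all samples used here are from mouse. The labels do not tell whether each replicate was a different animal, and p-values therefore cover only the spread among these libraries, which may be technical.

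A Gm or Rik symbol says that a transcript was annotated from genome or cDNA sequence before anything was known of its function. Such transcripts are of 3 kinds: protein-coding genes (some since renamed), long noncoding RNAs (lncRNAs), and transcribed pseudogenes, copies of other genes. LncRNAs are transcripts without a long reading frame, many of which start or end beside a known gene or run antisense to it. Microglia are the resident macrophages of the brain. They depend on CSF1 receptor signalling, which IL-34 engages, and on TGFB for their tissue identity, and they lose much of that identity in culture.

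Libraries held 11584561 to 28841472 counts. The microglial markers Cx3cr1, P2ry12, Tmem119, Csf1r and Sall1 summed to 29566 to 33439 CPM ex vivo, 2649 to 2705 CPM at 6 h, 2783 to 3439 CPM at 24 h, 7157 to 7811 CPM at 7 d with TGFB, 2654 to 3393 CPM at 7 d without it, and 195 to 251 CPM in lysate. Ex vivo replicates 2 and 3 carried 95 and 126 CPM of 4 neutrophil and monocyte markers, against 5.62 to 18.8 CPM in the other ex vivo libraries. Replicate 3 also carried the most choroid plexus, astrocyte and oligodendrocyte markers, at 119, 161 and 114 CPM, where the other ex vivo libraries held at most 42.7, 26.5 and 30.1 CPM. At 7 d, replicates 2 and 3 stood apart: across genes, the log2 correlation of replicates 1, 4 and 5 was 0.983 to 0.993, that of replicates 2 and 3 was 0.993, and pairs drawn from both sets had 0.952 to 0.977. Both lay above the other 3 libraries in 69 of the 176 transcripts (39.2%) and below them in 50 (28.4%), close to the shares among the 7972 other symbols at the same level (37.5% and 28.6%). In bulk RNA, fewer cells of a type and less RNA per cell cannot be told apart.

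Of the 176 transcripts 174 were found in the RefSeq annotation of GRCm38.p6, 131 under their own symbol and 43 as an older name of a gene that now has another symbol. By name they were 116 protein-coding, 49 lncRNAs (27.8%) and 9 transcribed pseudogenes. The coding names 6430706D22Rik and A730008H23Rik are both older names of Hjurp, with similar means of 102 and 91.4 TPM ex vivo. Each of these names is counted in the numbers of transcripts given here. Among the 7972 other symbols at the same level 26 were lncRNAs (0.326%) and 99.1% were protein-coding. The median gene body was 13970 bp for the provisional names and 26236 bp for the other symbols. Coding provisional genes had a median of 18789 bp, lncRNAs 8877 bp and pseudogenes 1369 bp.

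The strand was known for the 136 transcripts with a start site in RefSeq. Of these, 7 have 10 microRNA (miRNA) hairpins on their strand within the gene body. The other transcripts were not searched for hairpins. The RNA was selected for poly(A), so the libraries measured the host transcripts and not the miRNAs. The best-known of these miRNAs are shown by their mature sequence from RefSeq, 5′ to 3′, with the seed (bases 2 to 8, which pair with target messages) in capitals.
miR-223-3p, in F630028O10Rik: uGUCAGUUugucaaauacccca
miR-29b-3p, in A330023F24Rik: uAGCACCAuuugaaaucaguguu
miR-29c-3p, in A330023F24Rik: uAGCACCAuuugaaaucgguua
miR-27b-3p, in 2010111I01Rik: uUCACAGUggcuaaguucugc
miR-24-3p, in 2010111I01Rik: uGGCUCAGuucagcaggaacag
miR-339-5p, in 3110082I17Rik: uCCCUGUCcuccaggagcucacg
The 2 miR-29 sequences share a seed, and the other 4 each have a seed of their own.

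F630028O10Rik, the lncRNA that contains miR-223, a miRNA known from neutrophils and macrophages, lies at chrX:96239926-96243642 on the plus strand. It was nearly silent ex vivo at 0.0468, 1.26, 1.14, 0.225 and 0.229 CPM, and reached 1.48 and 0.608 CPM at 6 h, 2.47, 3.43 and 1.08 CPM at 24 h, and 10.8, 8.74, 5.69, 10.9 and 5.09 CPM at 7 d. With TGFB the 7 d cultures held 13.3 and 35.6 CPM. All 7 d libraries, with or without TGFB, lay above all ex vivo libraries, and the transcript passed the level of 20 CPM through the TGFB group. The 7 d cultures exceeded ex vivo cells by 3.90 ± 0.58 on the log2 scale (fitted difference ± SE in all such values here). Fold values here come from the same fits, whose scaling of libraries (TMM) can make them differ from ratios of the CPM printed. The TGFB cultures exceeded the 7 d cultures by 1.64 ± 0.59 with no overlap of libraries, which missed the threshold (adjusted p = 0.0716, edgeR quasi-likelihood test). The highest ex vivo values were in replicates 2 and 3, the libraries with the most neutrophil and monocyte markers, whose part in these values was not tested. Lysate held 1 count in 4 libraries.

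A330023F24Rik, the lncRNA at chr1:195017399-195037908 with miR-29b-2 and miR-29c, had an early and passing peak. It measured 1.73, 4.18, 3.88, 1.42 and 2.35 CPM ex vivo, 48.5 and 40.2 CPM at 6 h, 43.6, 42.3 and 38.1 CPM at 24 h, and 6.10, 7.90, 9.19, 7.02 and 10.3 CPM at 7 d. The 6 h and ex vivo libraries differed by 4.44 ± 0.33 on the log2 scale, and the 7 d and ex vivo libraries by 1.65 ± 0.28. Lysate held 72.2 to 129 CPM, more than any microglial library.

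2010111I01Rik, now Aopep (aminopeptidase O, a metalloprotease), spans the hairpins of miR-23b, miR-27b and miR-24-1. It was low ex vivo at 6.83, 9.62, 11.3, 15.2 and 12.8 CPM and held 135 and 107 CPM at 6 h, 103, 87.1 and 120 CPM at 24 h, and 184, 189, 201, 142 and 174 CPM at 7 d. With TGFB the level was 142 and 151 CPM, which overlapped the 7 d libraries. Unlike the miR-29 host it stayed high through 7 d, 4.07 ± 0.19 above ex vivo on the log2 scale. 3110082I17Rik, with miR-339, averaged 24.2 ± 3.71 CPM with TGFB (SD, n = 2), against 16 ± 8.38 CPM at 7 d (SD, n = 5), where replicates 2 and 3 were the highest at 27.8 and 21.6 CPM. It shares 18.6% of its body with Gpr146 and spans C130050O18Rik, and reads of these genes cannot be told apart.

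Over all 176 transcripts, the ex vivo group was the most common place of the highest mean: 59 had it ex vivo, 35 at 6 h, 27 at 24 h, 16 at 7 d with TGFB and 39 at 7 d without it. The level of 20 CPM was reached by 128 transcripts ex vivo, 86 at 6 h, 107 at 24 h, 109 at 7 d with TGFB and 113 at 7 d without it. Provisional names took 0.898 to 0.989% of all counts ex vivo, 0.803 to 0.818% at 6 h, 0.821 to 0.836% at 24 h, 0.728 to 0.767% at 7 d with TGFB, 0.807 to 0.834% at 7 d without it, and 0.854 to 0.867% in lysate. In all 5 microglial groups 59 transcripts (33.5%) reached the level, against 57.9% of the other symbols, and 47 (26.7%) reached it in 1 group, against 11.5%. Just inside the level were 3830406C13Rik, with 20.10 CPM at 7 d, and 4930526I15Rik, with 20.15 CPM ex vivo. Just outside it were C330027C09Rik, with 19.86 CPM at 7 d with TGFB, and D630045J12Rik, with 19.65 CPM ex vivo.

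**Figure D1:**
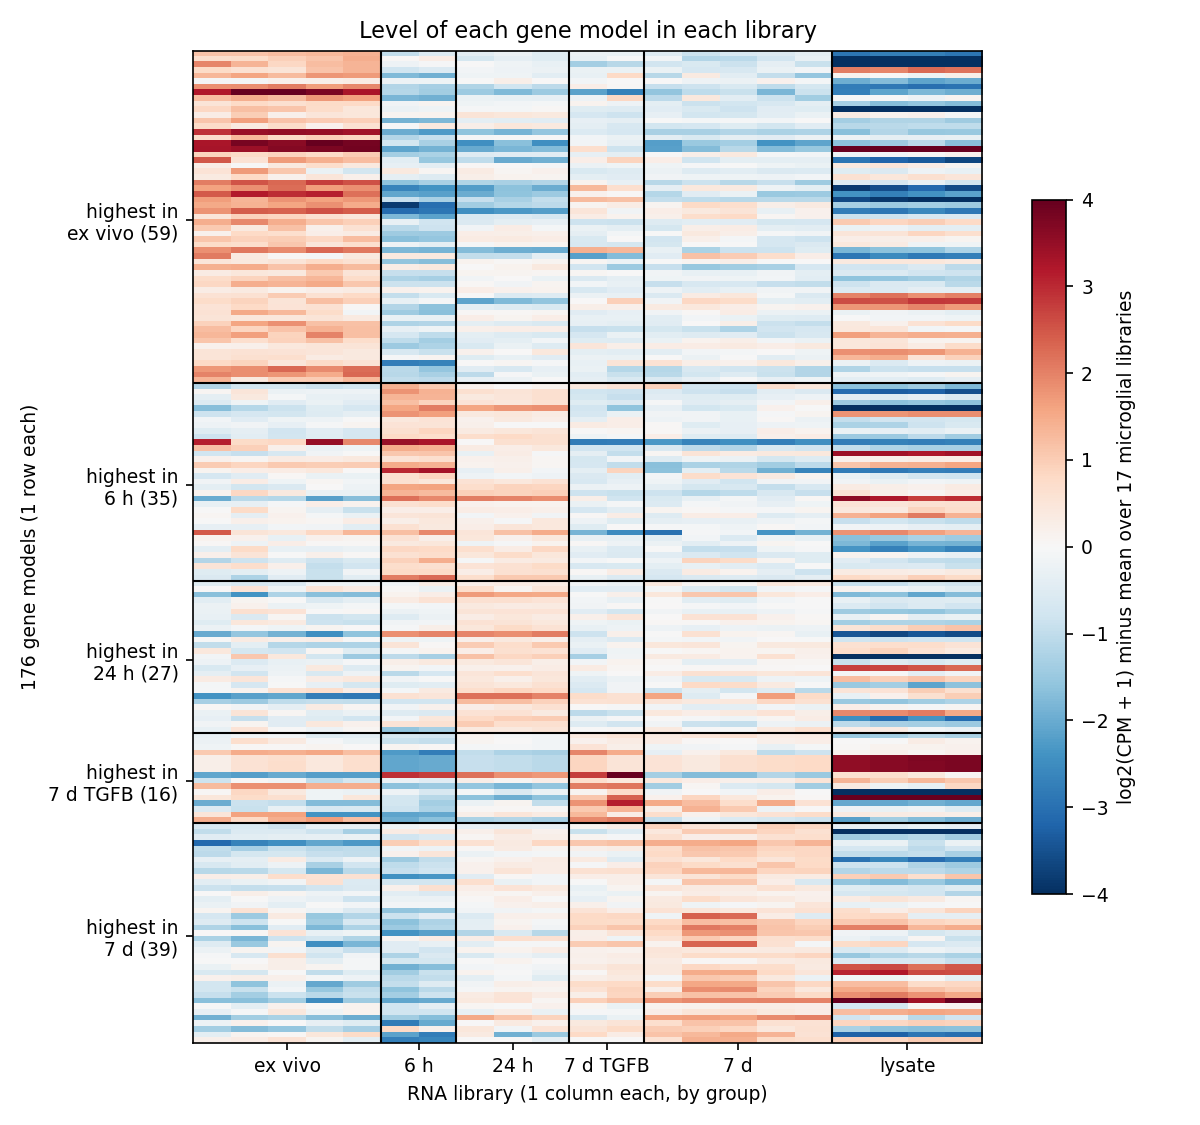
Level of each of the 176 transcripts in each RNA library, as log2(CPM + 1) minus the transcript's mean over the 17 microglial libraries (colour). Each row is a transcript, grouped by the group of its highest mean, and each column is a library. The block of 59 transcripts highest ex vivo is mostly pale or blue in the cultures, and the lysate columns vary within every block.

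In TPM, which also scales a count by the length of the transcript, the transcripts at the top differed between groups. Ex vivo the 3 highest means were those of Gm20605 (315 TPM), 1700017B05Rik (275 TPM) and Gm15441 (257 TPM). At 6 h 2510009E07Rik led with 196 TPM, at 24 h 4930404N11Rik with 350 TPM, at 7 d with TGFB 9530068E07Rik with 159 TPM and at 7 d without it 1110008F13Rik with 207 TPM. Gm20605 is a readthrough transcript whose body is 87.0% covered by Lrch4. Gm15441 shares 35.4% of its body with Txnip, which averaged 1607 CPM ex vivo, and 4930404N11Rik lies wholly within Mfsd12. Reads of these loci therefore cannot be assigned to 1 gene.

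The comparison of cultured with ex vivo microglia asked what leaving the brain does to their transcripts. After 6 h 62 of the 176 transcripts were called higher and 69 lower (adjusted p under 0.05), beside 31.2% higher and 36.8% lower over all genes tested. After 24 h 58 were higher and 64 lower, beside 29.6% and 33.1%. After 7 d 63 were higher and 71 lower, beside 34.8% and 35.7%. The median log2 difference was −0.06 at 6 h, 0.02 at 24 h and −0.09 at 7 d, where all genes tested had medians of −0.17, −0.06 and −0.02. Scaling matters most at 6 h: by library totals alone the median of all genes moved to −0.57 and the split to 44 higher and 85 lower, and in log2(TPM + 1) the split was 47 and 80. At 7 d the TPM split was 53 and 85, with a median of −0.15 over all genes. Among transcripts at 20 CPM in both groups, 40 of 70 rose and 9 fell at 6 h, 31 of 87 rose and 21 fell at 24 h, and 27 of 85 rose and 28 fell at 7 d. The shares of other symbols with the same levels were 52.1% and 20.4%, 38.8% and 26.4%, and 38.6% and 32.5%.

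**Figure D2:**
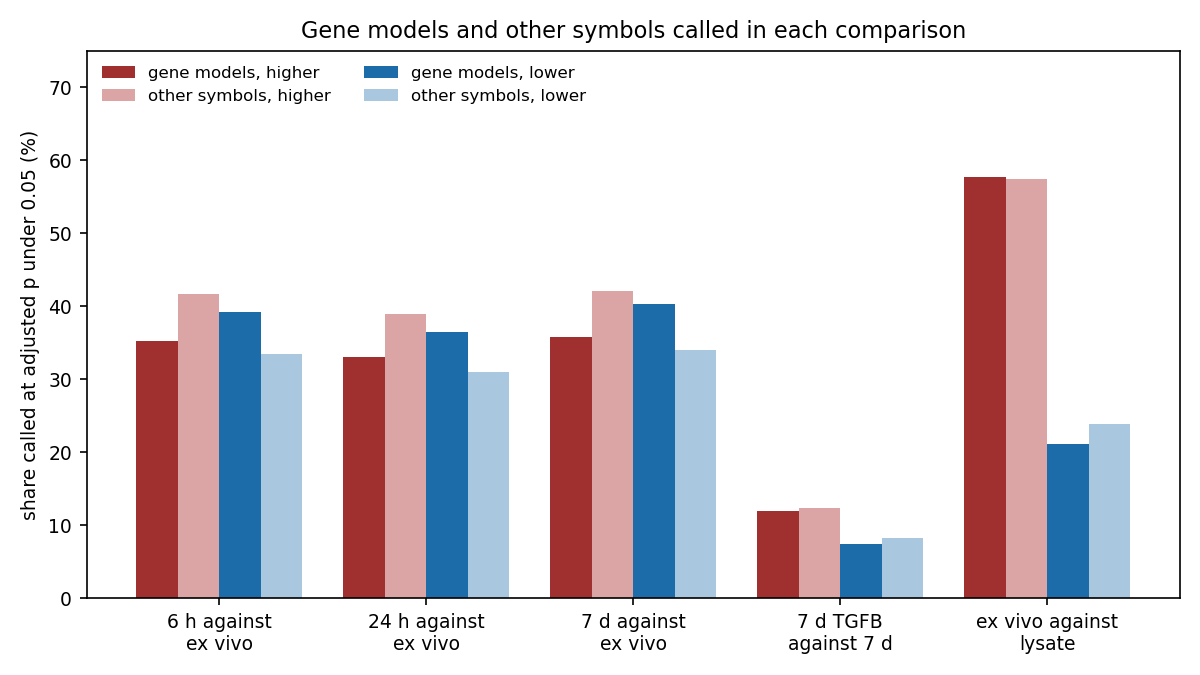
Share (percent, axis from 0) of the transcripts with provisional names and of the other symbols at the same level that were called higher (red) or lower (blue) in each comparison (adjusted p under 0.05, edgeR). At 7 d against ex vivo 35.8% of the transcripts and 42.1% of the other symbols were higher, and with TGFB against 7 d 11.9% and 12.3% were.

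Transcripts that were high ex vivo and nearly absent from culture included lncRNAs without an overlapping named gene, given first here. The coding gene Gm996 and the lncRNA 6330418K02Rik, which overlaps Gal3st4, were among the largest falls too and are given below. E230029C05Rik, at chr7:90029159-90049071 on the plus strand, held 59.4, 87.1, 75.3, 108 and 88.3 CPM ex vivo, 2.77 and 1.54 CPM at 6 h, 0.137, 0.975 and 0.141 CPM at 24 h, and 0.357, 1.24, 1.46, 0.201 and 0.455 CPM at 7 d. With TGFB it held 4.85 and 4.06 CPM, above every 7 d library without it and far under the ex vivo libraries. The fitted difference was −6.75 ± 0.48 for 7 d against ex vivo and 2.67 ± 0.52 for TGFB against 7 d, both on the log2 scale.

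Gm10790, at chr13:41865915-41913092, had the same loss in culture and no return with TGFB. It held 92.7, 159, 159, 137 and 96.8 CPM ex vivo, 3.63 and 2.90 CPM at 6 h, 2.74, 2.00 and 2.67 CPM at 24 h, and 2.43, 4.02, 4.42, 1.85 and 4.59 CPM at 7 d. In the TGFB cultures it was lower still, at 1.30 and 0.555 CPM, a difference of −1.82 ± 0.41 from 7 d that was no longer called without TGFB replicate 2 (adjusted p = 0.126, edgeR). Gm5086, at chr13:97560000-97583994, was absent early and partly back later. It held 37.7 to 63.8 CPM ex vivo, 0.312 and 0.514 CPM at 6 h, 1.05 to 1.41 CPM at 24 h, and 8.07 to 15.0 CPM at 7 d, and TGFB cultures at 14.5 and 9.15 CPM overlapped the 7 d range. By the fit, sorted ex vivo cells held 80.0-fold more E230029C05Rik, 123-fold more Gm10790 and 111-fold more Gm5086 than whole brain lysate. The lysate means were 1.32, 1.34 and 0.633 CPM.

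Coding genes that were also high ex vivo and low at 6 h included Gm996, 9030617O03Rik, I830077J02Rik and Gm7694. Gm996, now Ajm1 (named for AJM-1, a protein of epithelial junctions in the worm Caenorhabditis elegans), held 66.6 to 98.7 CPM ex vivo and at most 2.15 CPM in any 6 h, 24 h or 7 d library. Lysate held 174 to 262 CPM, more than any ex vivo library. With TGFB it held 9.83 and 2.88 CPM, against 0.500 to 2.15 CPM at 7 d, a log2 difference of 2.49 ± 0.40. Without TGFB replicate 1 it was 1.30 and no longer called (adjusted p = 0.0553, edgeR). 9030617O03Rik, now Dglucy (D-glutamate cyclase, a mitochondrial enzyme), came back with time: it averaged 55.4 ± 6.58 CPM ex vivo (SD, n = 5), 0.351 and 1.36 CPM at 6 h, 7.37 ± 0.954 CPM at 24 h (SD, n = 3) and 25.1 ± 5.27 CPM at 7 d (SD, n = 5). At 7 d it was still 2.12-fold lower than ex vivo (adjusted p = 7.02e-05, edgeR).

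Other transcripts were scarce ex vivo and present in culture. D330045A20Rik, now Radx (a single-strand DNA binding protein that acts at replication forks), held 2.17 to 4.91 CPM ex vivo, 60.7 and 67.5 CPM at 6 h, 62.0 to 70.0 CPM at 24 h and 13.1 to 25.5 CPM at 7 d. No culture overlapped the ex vivo libraries, and the 6 h difference was 4.49 ± 0.26 on the log2 scale. 1110008P14Rik and 5730508B09Rik (now Fam241a) came later. 1110008P14Rik averaged 1.03 ± 0.530 CPM ex vivo, 0.577 ± 0.0437 CPM at 6 h, 7.25 ± 1.31 CPM at 24 h and 23.8 ± 1.21 CPM at 7 d. Fam241a averaged 1.26 ± 0.512, 1.40 ± 0.392, 15.0 ± 3.74 and 22.5 ± 3.17 CPM in the same order (SD, n = 5, 2, 3 and 5). With TGFB Fam241a held 3.60 and 4.82 CPM, under all 7 d libraries (20.0 to 27.1 CPM).

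**Figure D3:**
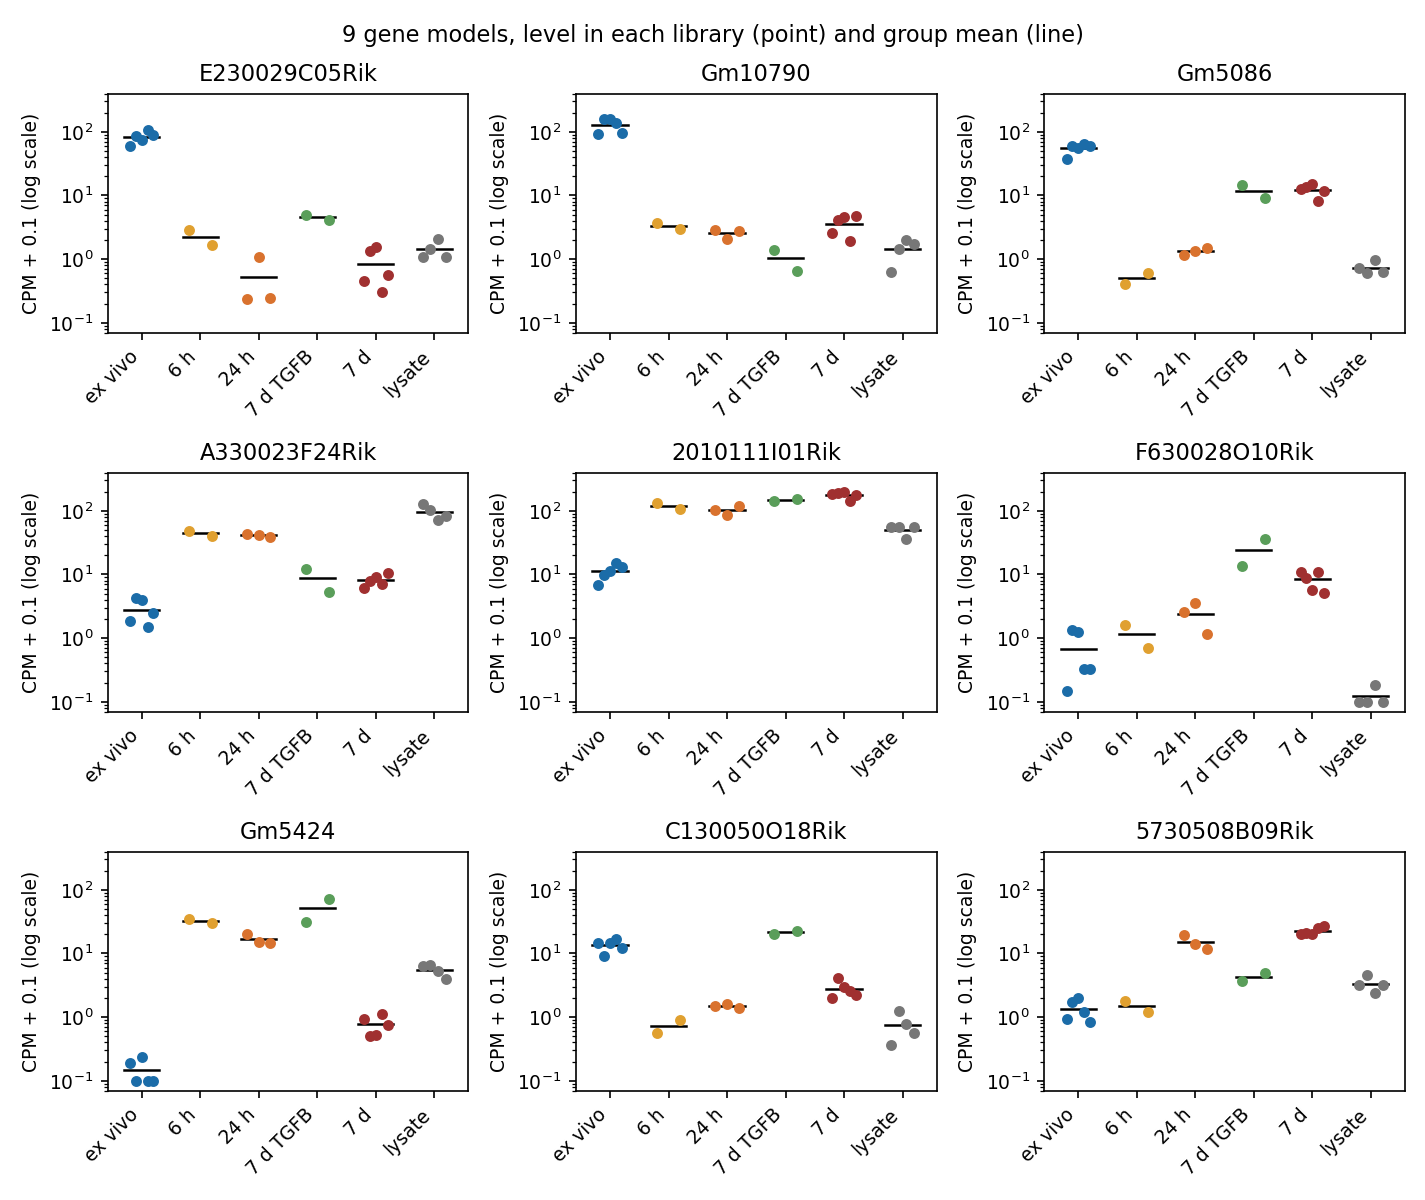
CPM of 9 transcripts in every library on a log axis (CPM + 0.1), by group, with points for libraries and lines for group means. E230029C05Rik, Gm10790 and Gm5086 sit high ex vivo and low in culture, A330023F24Rik peaks at 6 h and 24 h, 2010111I01Rik stays high through 7 d, and Gm5424 and C130050O18Rik are higher in the TGFB cultures than at 7 d.

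B430306N03Rik (Treml6, a member of the TREM-like receptor family) rose at 6 h to 122 and 171 CPM and at 24 h to 121, 140 and 147 CPM, against 11.6, 17.7, 21.9, 28.5 and 24.9 CPM ex vivo. At 6 h the difference was 3.21 ± 0.30 (adjusted p = 1.00e-07) and at 24 h 2.67 ± 0.28 (adjusted p = 4.31e-07, edgeR for both). At 7 d it held 23.6 to 45.2 CPM, which overlapped the ex vivo libraries, and its difference of 0.75 ± 0.25 (adjusted p = 0.0134, edgeR) missed the threshold without ex vivo replicates 2 and 3 (adjusted p = 0.0830). TGFB cultures held 23.3 and 12.4 CPM.

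2810474O19Rik, now Resf1 (a silencer of retroelements), rose at 6 h to 515 and 386 CPM, against 125 to 207 CPM ex vivo, by 2.01 ± 0.20 on the log2 scale (adjusted p = 1.14e-07, edgeR). At 7 d it fell to 76.5 to 108 CPM, under every ex vivo library (adjusted p = 0.00310, edgeR). By the fit 2510009E07Rik rose 5.62-fold at 6 h (615 and 477 CPM, against 102 to 142 CPM ex vivo, adjusted p = 1.08e-05, edgeR). At 7 d its libraries split: replicates 2 and 3 held 135 and 128 CPM and the other 3 held 313 to 434 CPM.

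Gm21975, now Evi2 (the Evi2a and Evi2b locus, coding for membrane proteins of blood cells), shares 60.2% of its body with Evi2b. It rose to 267 and 303 CPM at 6 h and to 289, 431, 442, 390 and 324 CPM at 7 d, against 85.0 to 147 CPM ex vivo. With TGFB it fell to 116 and 148 CPM, under every 7 d library, by 1.41 on the log2 scale with an SE of 0.20 (adjusted p = 8.04e-05, edgeR). Evi2b itself averaged 109 ± 22.9 CPM with TGFB (SD, n = 2) and 311 ± 43.0 CPM at 7 d (SD, n = 5).

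Among renamed genes of endosomes and lysosomes the courses differed. 3110043O21Rik, the mouse C9orf72 gene, whose human repeat expansion causes amyotrophic lateral sclerosis and frontotemporal dementia, rose to 167 and 135 CPM at 6 h and to 106, 98.3 and 110 CPM at 24 h, against 48.7 to 63.7 CPM ex vivo (adjusted p = 4.92e-08 and 9.32e-05, edgeR). At 7 d it held 52.6 to 82.0 CPM, a difference of 0.31 ± 0.14 that missed the threshold (adjusted p = 0.0546, edgeR). 9030624J02Rik, now Vps35l (a subunit of the retriever complex, which returns cargo from endosomes to the cell surface), rose 1.91-fold at 7 d (157 to 208 CPM, against 96.5 to 111 CPM ex vivo, adjusted p = 1.98e-06, edgeR). 2310035C23Rik, now Relch (a protein of recycling endosomes that acts in cholesterol transport), fell 1.44-fold at 7 d (46.6 to 49.4 CPM, against 60.7 to 93.2 CPM ex vivo, adjusted p = 6.51e-04, edgeR).

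2010107E04Rik, now Atp5mpl (a small protein of ATP synthase), held 25.7, 58.7, 55.4, 29.6 and 26.5 CPM at 7 d, against 5.00, 3.38, 9.09, 3.00 and 4.87 CPM ex vivo. 2410015M20Rik, now Micos13 (a part of the complex that shapes cristae), held 12.8, 42.0, 43.0, 21.1 and 14.9 CPM at 7 d, against 6.13, 5.44, 10.0, 3.15 and 4.98 CPM ex vivo. Neither overlapped between the groups, and without 7 d replicates 2 and 3 the log2 differences were 2.52 and 1.54 in place of 2.99 and 2.21. 1110008F13Rik, now Rab5if (RAB5 interacting factor, a small membrane protein), rose to 113, 154, 148, 126 and 123 CPM at 7 d, against 26.6 to 36.3 CPM ex vivo (2.08 ± 0.10, adjusted p = 3.36e-11, edgeR). With TGFB it held 79.2 and 83.6 CPM, 1.52-fold lower than at 7 d (adjusted p = 0.00444, edgeR), a call lost without either TGFB library (adjusted p of 0.0547 and 0.0711).

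Of the genes for sterol synthesis, 0610007P14Rik, now Erg28 (an endoplasmic reticulum scaffold for sterol enzymes), averaged 10.6 ± 2.16 CPM ex vivo, 1.53 ± 0.947 CPM at 6 h, 13.6 ± 1.67 CPM at 24 h and 22.2 ± 4.87 CPM at 7 d (SD, n = 5, 2, 3 and 5). 2410131K14Rik, now Spring1 (an activator of the SREBP pathway), stayed between 13.9 and 29.2 CPM in all 17 microglial libraries. A230050P20Rik, now Shfl, codes for an inhibitor of ribosomal frameshifting in viruses. It averaged 29.7 ± 4.18 CPM ex vivo, 9.88 ± 1.83 CPM at 6 h, 13.7 ± 3.26 CPM at 24 h and 17.1 ± 6.00 CPM at 7 d. Gm5431 (Irgb9b8, by its RefSeq synonym a member of the immunity-related GTPases) averaged 10.0 ± 3.24, 0.752 ± 0.535, 4.92 ± 5.26 and 20.6 ± 4.77 CPM in the same order. Its 24 h libraries disagreed, at 11, 1.44 and 2.34 CPM.

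Several renamed genes code for factors that act on RNA or DNA. 1110037F02Rik, now Virma (a scaffold of the m6A methyltransferase complex), rose 1.35-fold at 24 h (102 to 107 CPM, against 68.7 to 92.0 CPM ex vivo, adjusted p = 0.00240, edgeR) and held 75.5 to 83.1 CPM at 7 d. 2410016O06Rik, now Riox1 (a ribosomal oxygenase), rose 2.79-fold by the fit at 6 h (47.8 and 56.2 CPM, against 19 to 31.9 CPM ex vivo, adjusted p = 7.74e-07, edgeR). 3110062M04Rik, now Cyren (a regulator of end joining in DNA repair), rose 1.87-fold at 7 d (75.6 to 96.4 CPM, against 37.6 to 69.8 CPM ex vivo, adjusted p = 2.28e-04, edgeR). It shares 50.5% of its body with Tmem140, and reads of this pair cannot be told apart. Tmem140 rose at 7 d too, by 1.00 ± 0.18 on the log2 scale (adjusted p = 8.82e-05, edgeR). The most even transcript was 2510039O18Rik: its 5 microglial group means spanned 120 to 150 CPM, a ratio of 1.25, and none of the 4 microglial comparisons called it. Lysate, however, held 31.5 to 40.7 CPM, by the fit 5.30-fold less than ex vivo cells. By library totals alone 2510039O18Rik was called lower at 6 h.

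The coding transcripts 2610507B11Rik, 5031439G07Rik and 2700081O15Rik still carry their provisional symbols in RefSeq. 2610507B11Rik (Kiaa0100) rose at 7 d to 734, 586, 519, 777 and 709 CPM, against 256, 259, 223, 316 and 320 CPM ex vivo (2.53-fold, adjusted p = 4.00e-07, edgeR). With TGFB it held 435 and 494 CPM, under every 7 d library, a difference of −0.43 ± 0.19 that missed the threshold (adjusted p = 0.142, edgeR). 5031439G07Rik, whose body holds the hairpin of miR-1249, rose at 7 d to 275 to 360 CPM, against 172 to 236 CPM ex vivo (1.66-fold, adjusted p = 1.64e-04, edgeR). 2700081O15Rik, which contains the hairpin of miR-6991, rose at 6 h to 72.2 and 67.3 CPM, against 46.4 to 53.0 CPM ex vivo (adjusted p = 8.49e-05, edgeR). At 24 h it held 26.9 to 28.9 CPM, and at 7 d 7.32 to 11.7 CPM, under every ex vivo library.

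The pseudogene Gm15772 held 14.2, 67.1, 68.7, 20.0 and 11.8 CPM at 7 d, against 8.51, 3.85, 13.7, 1.50 and 2.86 CPM ex vivo. The groups overlapped, 7 d replicates 2 and 3 were the highest libraries, and the log2 difference was 2.61 with them and 1.42 without them. The pseudogene Gm1821 (Ubb-ps, a ubiquitin B pseudogene) held 37.3 to 43.0 CPM at 7 d, within the ex vivo range of 21.8 to 50.5 CPM.

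The lncRNA Oip5os1 (1700020I14Rik, also called Cyrano, known to promote decay of miR-7) rose at 7 d to 34.7 to 43.0 CPM, against 14.2 to 30.6 CPM ex vivo, by 0.92 ± 0.17 on the log2 scale (adjusted p = 1.81e-04, edgeR). Chaserr (1810026B05Rik), which lies upstream of Chd2 and is known to restrain it in cis, rose at 6 h to 81.0 and 76.4 CPM, against 23.8 to 65.8 CPM ex vivo (adjusted p = 0.00117, edgeR). Chd2 rose with it, by 1.50 ± 0.22 on the log2 scale (adjusted p = 1.41e-05, edgeR). Chaserr shares 10.5% of its annotated body with Chd2, and reads of this pair cannot be told apart. At 7 d Chaserr held 12.1 to 18.6 CPM, under every ex vivo library.

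The comparison of 7 d cultures with and without TGFB asked which transcripts this factor of the brain environment changes. With TGFB 21 of the 176 transcripts were called higher and 13 lower, beside 9.57% and 6.52% over all genes tested. By library totals alone the split was 20 and 20, and in TPM 19 and 23. Other markers moved with this comparison: the proliferation markers Mki67, Top2a and Mcm5 summed to 213 and 790 CPM with TGFB, against 19.1 to 447 CPM at 7 d, which overlapped, and the 4 border macrophage markers Mrc1, Cd163, Lyve1 and Pf4 to 6.36 and 6.38 CPM (Lyve1 at 0), against 53.6 to 116 CPM. Their part in the calls was not tested. The calls rest on 2 TGFB libraries, and without TGFB replicate 1 or 2 the total was 21 or 20. Among the 94 transcripts at 20 CPM in both groups 5 rose and 7 fell (5.32% and 7.45%), where 10.5% and 7.88% of the other symbols with such levels did.

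Among the transcripts called, the widest difference was that of the pseudogene Gm5424, at chr10:62071022-62072571, with 30.7 and 72.1 CPM with TGFB, against 0.821, 0.402, 0.423, 1.04 and 0.662 CPM at 7 d. Its course in culture was its own: 5 counts in all 5 ex vivo libraries, 34.4 and 30.2 CPM at 6 h, 20.3, 15.3 and 14.5 CPM at 24 h, and under 1.1 CPM at 7 d without TGFB. The TGFB libraries differed from each other more than 2-fold and both lay far above 7 d (6.32 ± 0.37 on the log2 scale). A pseudogene can share reads with the gene it was copied from, and the sources used here do not say how the counting treated such reads.

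C130050O18Rik, a coding gene, held 20.2 and 22.8 CPM with TGFB, against 1.93 to 3.95 CPM at 7 d. Its TGFB libraries lay above the ex vivo libraries too, which held 8.89 to 16.8 CPM. It lies wholly within 3110082I17Rik, on the other strand, and reads of this pair cannot be told apart. 1600014C10Rik, also coding, rose to 95 and 68.3 CPM, against 18.8, 27.2, 31.4, 11.3 and 13.1 CPM at 7 d, by 2.11 ± 0.28 (adjusted p = 5.79e-05, edgeR). Its ex vivo libraries held 50.1 to 72.3 CPM, and its 6 h libraries 4.17 and 2.66 CPM. A530088E08Rik and B430010I23Rik, lncRNAs that overlap Rasal3 and Mtus1, held 42.1 ± 2.37 and 22.2 ± 0.793 CPM with TGFB (SD, n = 2), against 7.95 ± 0.469 and 4.48 ± 1.38 CPM at 7 d (SD, n = 5). Ex vivo A530088E08Rik held 46.3 to 62.6 CPM and B430010I23Rik 30.9 to 43.1 CPM, all above the TGFB cultures. The lncRNA Gm16897, which shares 26.1% of its body with Cd34, held 29.2 and 31.1 CPM with TGFB, against 1.78 to 6.62 CPM at 7 d, and 16.4 to 24.8 CPM ex vivo. Cd34 itself averaged 364 ± 27.3 CPM with TGFB (SD, n = 2), against 37.1 ± 21.9 CPM at 7 d (SD, n = 5), and reads of this pair cannot be told apart.

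Of transcripts lower with TGFB, G530011O06Rik, a lncRNA wholly within Mid1, held 3.72 and 5.34 CPM, against 14.7, 46.6, 42.0, 33.9 and 24.5 CPM at 7 d. The difference was −2.73 ± 0.63. Without TGFB replicate 1 or 2 it was −2.52 or −2.93 and no longer called (adjusted p of 0.0955 and 0.0644, edgeR). 4930473A02Rik, which shares 52.7% of its body with Ptpra, fell to 54.8 and 50.1 CPM, against 102 to 128 CPM at 7 d (−1.01 ± 0.13, adjusted p = 2.69e-05, edgeR).

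In all, 53 of the 176 transcripts overlapped a named gene over at least 10% of their body. They were 32 lncRNAs, 18 coding names, with both names of Hjurp among them, and 3 pseudogenes. The labels do not say whether reads were counted by strand, so reads of such a pair cannot be told apart, and the counts of a pair are not independent. Overlaps among the provisional names themselves were not counted here. Of 38 pairs in which the provisional transcript was called at 7 d against ex vivo, the named gene was called in the same direction in 30, not called in 3 and called in the opposite direction in 5. At 6 h the same numbers were 39, 3 and 2 of 44, at 24 h 33, 2 and 2 of 37, and with TGFB against 7 d 8, 2 and 0 of 10.

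**Figure D4:**
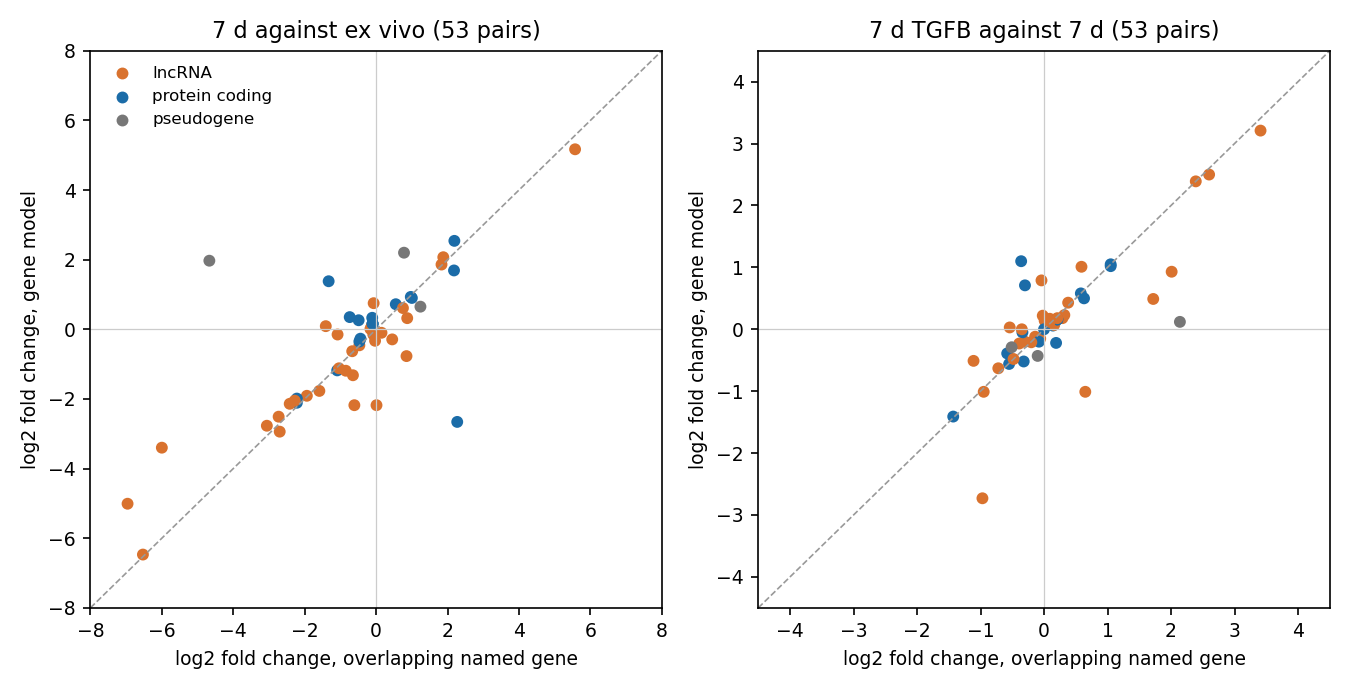
Log2 difference of 53 transcripts with provisional names (vertical axis) against that of the named gene each overlaps (horizontal axis), for 7 d against ex vivo and for 7 d TGFB against 7 d. Points are lncRNAs (orange), coding genes (blue) and pseudogenes (grey), and the dashed line marks equal values. Most points lie near this line, and the points in the upper left and lower right of the first panel include 5 pairs called in opposite directions.

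6330418K02Rik overlaps Gal3st4, a sulfotransferase gene, over 66.6% of its body. It averaged 0.920 ± 0.243 CPM at 6 h (SD, n = 2) and 2.52 ± 0.114 CPM at 7 d (SD, n = 5), against 84.9 ± 13.7 CPM ex vivo (SD, n = 5), and Gal3st4 averaged 1.65 ± 1.08 and 3.07 ± 0.881 CPM, against 402 ± 42.2 CPM. 1700071M16Rik lies wholly within Pla2g7, a lipoprotein-associated phospholipase, and averaged 30.7 ± 2.82 CPM at 24 h (SD, n = 3), against 0.355 ± 0.318 CPM ex vivo (SD, n = 5), where Pla2g7 averaged 206 ± 30.1 CPM, against 2.37 ± 2.47 CPM. Gm14023, over Il1a, the gene of interleukin 1 alpha, held 92.6 and 80.6 CPM at 6 h, and 72.2, 13.5, 14.2, 94.8 and 31.3 CPM ex vivo. These groups overlapped, and the 6 h call (adjusted p = 0.0471, edgeR) was kept in 4 of 15 alternatives. At 7 d all libraries held under 1 CPM.

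Other pairs went apart. 0610040J01Rik, which shares 11.7% of its body with Rell1, averaged 19.8 ± 2.39 CPM at 7 d, against 131 ± 13 CPM ex vivo (SD, n = 5 each), while Rell1 averaged 34.5 ± 2.64 CPM at 7 d, against 7.49 ± 2.04 CPM ex vivo. The pseudogene Gm6644, inside Plcl1, averaged 17.4 ± 2.42 CPM at 7 d, against 4.65 ± 0.867 CPM ex vivo, while Plcl1 averaged 2.80 ± 0.256 CPM at 7 d, against 74.7 ± 5.86 CPM ex vivo. With TGFB 0610040J01Rik held 36.9 to 42.9 CPM.

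Ex vivo microglia were also set against whole brain lysate, in which microglia are a minority. Of 175 transcripts tested 101 were called higher and 37 lower in sorted cells, beside 39.1% and 43.5% over all genes tested. Among the other symbols at the same level 57.4% were higher and 23.9% lower, close to the 57.7% and 21.1% of the transcripts. All reached 20 CPM in a microglial group by choice, which favours sorted cells. By DESeq2, with a median of −0.38 over all genes in place of −0.10, the split was 89 and 48, and by library totals alone, with a median of −0.41, it was 84 and 47. 5430427O19Rik, a coding gene on chromosome X, held 20.5, 36.3, 26.5, 17.6 and 16.7 CPM ex vivo, against 9 counts in the 4 lysate libraries, and stayed at 12.5 to 33.8 CPM in all cultures. A630001G21Rik, also coding, held 101, 130, 123, 94.4 and 77.7 CPM ex vivo, against 0.683, 0.546, 0.950 and 0.608 CPM in lysate, and stayed at 31.4 to 58.0 CPM in all cultures. 1700017B05Rik held 587 to 1002 CPM ex vivo, against 14.7 to 17.9 CPM in lysate. It fell at 7 d to 161 to 341 CPM (−1.56 ± 0.22, adjusted p = 7.71e-06, edgeR).

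In the other direction, Gm15800, now Hectd4 (a large ubiquitin ligase), fell in sorted cells to 179 to 319 CPM, against 484 to 601 CPM in lysate (−0.88 ± 0.19, adjusted p = 0.00111, edgeR). Gm37013, Gm38666 and Gm38667 lie over the protocadherin clusters, whose genes are known from neurons, and averaged 58.2 CPM each ex vivo, against 520, 517 and 517 CPM in lysate. Their counts differed by at most 62 in any library and were equal in 14 to 16 of 21 libraries, so these 3 names stand for 1 measurement. Of the named genes they overlap, those of the Pcdhg cluster averaged 60.4 to 85.3 CPM ex vivo. Those of the Pcdha cluster averaged at most 0.0944 CPM there. Reads of these overlapping genes cannot be told apart. At 6 h the 3 names held 8.70 and 9.16 CPM, and at 7 d 53.0 to 69.4 CPM. The 4 neuronal markers summed to at most 11 CPM ex vivo.

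Peaks were not used to choose the transcripts. Of the 136 with a start site in RefSeq, 122 (89.7%) had an ex vivo ATAC peak within 1 kb, 121 (89.0%) an H3K27ac peak, 126 (92.6%) an H3K4me2 peak and 107 (78.7%) a peak of PU.1, the factor that defines myeloid cells. Of 6341 other symbols the shares were 95.8%, 94.0%, 97.7% and 81.0%. At 7 d 120 (88.2%) had an ATAC peak and 117 (86.0%) an H3K27ac peak, against 96.6% and 92.3% of other symbols. Coding transcripts had an ex vivo ATAC peak in 90 of 96 cases and lncRNAs in 32 of 40.

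**Figure D5:**
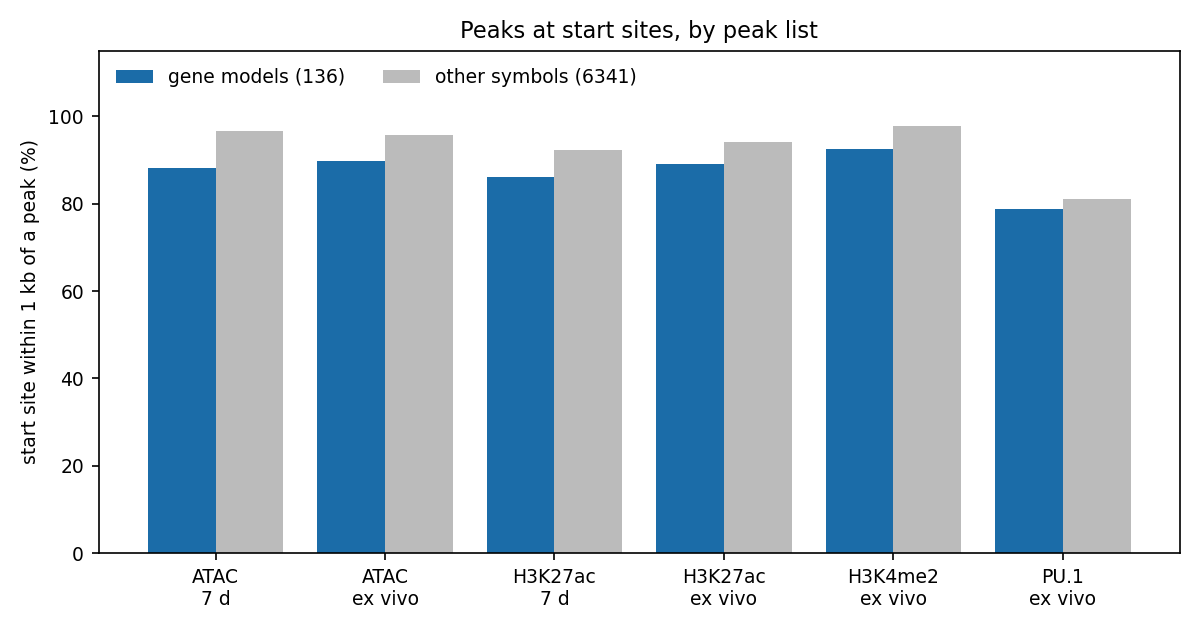
Share of start sites within 1 kb of a peak (percent, axis from 0) for 136 transcripts with provisional names and 6341 other symbols, by peak list. The shares for the transcripts run from 78.7% (PU.1) to 92.6% (H3K4me2), and those for the other symbols from 81.0% to 97.7%.

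Most start sites had peaks in both conditions. Of 50 transcripts called higher at 7 d with a start site, 45 had an ATAC peak and 44 an H3K27ac peak in both, and of 30 not called 24 and 25 did. Of 56 transcripts called lower at 7 d with a start site, 49 had an ATAC peak in both conditions and 2 ex vivo alone. For H3K27ac 46 had a peak in both and 4 ex vivo alone. E230029C05Rik was among these few: an ATAC peak covered its start ex vivo, and the nearest 7 d peak was 1472 bp away, although H3K27ac covered it in both. Gm996 had H3K27ac within 342 bp ex vivo, and 4340 bp away at 7 d. 1110008P14Rik, which was higher at 7 d, had H3K27ac over its start at 7 d and none within 12979 bp ex vivo. Other peaks went against the RNA. Gm12992 was lower at 7 d and had H3K27ac within 1 kb at 7 d alone, 2900026A02Rik was lower and had an ATAC peak at 7 d alone, and A330023F24Rik was higher and had an ATAC peak ex vivo alone. Each peak list was pooled over samples, so presence and absence have no replicate check, and 1 of the 7 d ATAC samples is labelled 8 d.

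The letters GAGGAAGT, the core of sites bound by PU.1, stood on either strand in 6 of 152 RefSeq promoters of these transcripts (3.95%, from 250 bases before to 50 after the start), against 3.20% of all 32851 promoters. The AP-1 letters TGANTCA stood in 5 (3.29%), against 7.81%, and the CRE letters TGACGTCA in 5 (3.29%), against 1.79%. A match is a run of letters and not a site. The 3 promoters printed here are from RefSeq on GRCm38.p6. They belong to transcripts with a PU.1 peak near a start site and an immune receptor name or an ex vivo-high level. The PU.1 letters, forward or as their reverse complement, are in capitals.
B430306N03Rik, chr17:48315912-48316211, plus strand: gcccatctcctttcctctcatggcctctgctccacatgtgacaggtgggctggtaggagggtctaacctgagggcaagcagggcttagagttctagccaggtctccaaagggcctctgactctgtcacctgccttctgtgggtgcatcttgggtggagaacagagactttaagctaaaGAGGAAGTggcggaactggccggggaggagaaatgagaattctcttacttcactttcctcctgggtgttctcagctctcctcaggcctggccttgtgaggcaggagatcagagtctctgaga
A630033H20Rik, chrX:107149365-107149664, plus strand: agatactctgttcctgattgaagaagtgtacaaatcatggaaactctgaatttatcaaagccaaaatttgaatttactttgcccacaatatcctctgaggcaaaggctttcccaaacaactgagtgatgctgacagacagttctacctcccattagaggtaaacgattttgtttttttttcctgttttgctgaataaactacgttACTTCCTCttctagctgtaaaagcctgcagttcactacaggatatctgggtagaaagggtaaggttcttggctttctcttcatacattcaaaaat
I830077J02Rik, chr3:105932615-105932914, minus strand: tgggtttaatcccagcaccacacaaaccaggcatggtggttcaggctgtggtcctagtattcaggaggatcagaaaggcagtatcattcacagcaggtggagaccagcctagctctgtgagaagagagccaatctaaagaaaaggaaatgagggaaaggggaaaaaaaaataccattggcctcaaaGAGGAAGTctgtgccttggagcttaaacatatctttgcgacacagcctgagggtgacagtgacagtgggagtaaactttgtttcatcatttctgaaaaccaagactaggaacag
The first base of the letters lay 72, 45 and 64 bases before the start of the printed promoter. An ex vivo PU.1 peak covered the start of B430306N03Rik and I830077J02Rik. For A630033H20Rik the peak lay 158 bp from the nearest of its 3 RefSeq start sites, which may not be the one printed.

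These 3 transcripts behaved differently in culture. B430306N03Rik rose early, as given above. I830077J02Rik was lost: 44.5, 73.9, 64.0, 70.8 and 37.6 CPM ex vivo, 0.975 and 0.841 CPM at 6 h, 1.10 to 2.06 CPM at 24 h and 2.01 to 6.00 CPM at 7 d. A630033H20Rik, now P2ry10b (a G protein-coupled receptor of the P2Y-like family), held 24.0, 56.0, 35.3, 15.2 and 8.88 CPM ex vivo, 12.2 and 9.82 CPM at 6 h, 47.3 to 60.2 CPM at 24 h and 29.0 to 40.3 CPM at 7 d. Its ex vivo libraries were widely spread, highest in replicates 2 and 3, which carried the most neutrophil and monocyte markers, and the part of those cells was not tested. At 24 h its difference from ex vivo missed the threshold (0.90 ± 0.40, adjusted p = 0.0608, edgeR).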

How the data were processed

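RNA-seq, ATAC-seq and ChIP-seq files of mouse microglia were used as deposited. Per the labels, RNA was poly(A)-selected, and the tools in the submitters' processing notes include HOMER, bedtools, Bowtie2, STAR and limma under R 3.3.1, with the mm10 build, no step being tied to a tool. The authors deposited whole-number read counts per gene symbol and a trimmed table of TPM. The sources used here do not say whether counting used strand. The peak lists, pooled per condition by the authors, were used for positions only. The transcripts, lists and tests were chosen with earlier results of these data known.

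CPM is a count over its library total. Counts were tested with edgeR 4.0.16 (TMM, filterByExpr, quasi-likelihood, robust) in R 4.3.3, with 17 microglial libraries in 1 model and ex vivo against lysate in a fit of 9 libraries. P-values were adjusted over all genes tested by Benjamini-Hochberg, and a call is an adjusted p under 0.05. SEs are the log2 difference over the root of F. Alternatives were DESeq2 1.42.0, limma 3.58.1 on log2(TPM + 1) or log2(TPM + 0.1), no TMM, no filter, a replicate block, other levels and leaving out libraries.

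Named transcripts were the 3 highest by CPM in each group, the 4 largest called rises and falls without overlap per comparison, those nearest the level, and those with a known role under a current symbol. Gm15441, 9530068E07Rik, 4930404N11Rik, 2510039O18Rik, 1600014C10Rik, 0610040J01Rik, 4930473A02Rik, 3110082I17Rik, 2700081O15Rik, Gm38667, Gm7694, Gm12992, 2900026A02Rik, I830077J02Rik and B430010I23Rik were chosen after their values were seen. Sequences and positions come from RefSeq on GRCm38.p6, the sequence of mm10. Libraries of 11584561 to 28841472 counts set the precision, and the number of libraries limits it in groups of 2. A further microglial marker of the list is not reported here.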

Additional observations from a re-analysis of the deposited data

Results flagged for a closer look

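Transcripts named by rule or role, and others chosen after their values were seen, were searched in the groups of 4 or 5 libraries. The search looked for a library far from the others, by the gap to its nearest neighbour over the range of the group. Of 211 such searches 3 found one. Chance alone flags about 1 in 20 groups.

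2010111I01Rik (Aopep) had 35.8 CPM in lysate replicate 3, while the other lysate libraries held 54.8 to 55.7 CPM. G530011O06Rik, the lncRNA within Mid1, had 88.1 CPM in ex vivo replicate 1, and the other ex vivo libraries held 19 to 27.2 CPM. 2700081O15Rik had 46.4 CPM in ex vivo replicate 2, and the other ex vivo libraries held 51.1 to 53.0 CPM. Why these libraries differ was not tested.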

How the results depend on the processing

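Of 5911 alternative values of named transcripts, 5628 kept their side of the threshold, 176 lost a call, 106 gained one, and 1 reversed. Values called in the main fit had to keep their direction as well. For values not called there, a change of sign without a call was counted as kept. The reversed value was 2510039O18Rik at 6 h against ex vivo, not called in the main fit and −0.32 without TMM (adjusted p = 0.0453, edgeR). The number of transcripts was 283 at a level of 10 CPM and 100 at 40 CPM, and 174 to 180 without 1 library.

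For TGFB against 7 d, leaving out 1 library gave 20 to 36 calls, 14 to 23 higher and 4 to 13 lower. The number lower was 20 without TMM, 23 with log2(TPM + 1) or log2(TPM + 0.1), and 22 with TPM and no filter. With 1 TGFB or 6 h library left out, the lone one is assumed to vary like the other groups.

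Leaving out 1 library gave 116 to 132 calls at 6 h, 109 to 125 at 24 h, 128 to 133 at 7 d and 134 to 141 for ex vivo against lysate. In the direction higher the ranges were 55 to 63, 48 to 63, 57 to 66 and 93 to 103, and in the direction lower 59 to 70, 60 to 65, 66 to 73 and 36 to 44. Without 7 d replicates 2 and 3, or without ex vivo replicates 2 and 3, alternatives added after seeing the data, no count moved by over 1.5 times. Without the 7 d pair 61 were higher and 68 lower at 7 d, and without the ex vivo pair 91 were higher and 43 lower than in lysate.

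Deviations from the group mean correlated at −0.143 to 0.378 between same-numbered libraries of the groups compared. The highest value was for replicate 2 of the 7 d cultures with and without TGFB. Differently numbered libraries were not compared, so these values cannot tell whether replicate numbers pair the samples. With the replicate block the calls were 61 higher and 64 lower at 6 h, 57 and 63 at 24 h, 63 and 71 at 7 d, 20 and 11 for TGFB, and 98 and 36 against lysate. Transcripts under 10 counts in a group are limited by depth, and intervals for pooled peaks cannot be given. The cause of these changes was not tested.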
